A study of Mus musculus with 24 samples.

Results

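Il33, the gene of the alarmin interleukin-33 (IL-33), and Il1rl1, the gene of its receptor ST2, were described over 24 RNA-seq libraries of EMS404 cells. These 2 of 16604 measured genes were chosen by name, with earlier results of these data known, so their levels and differences are a description and no test is given for them. The fall of Il33 with SR9011 is the result already known that put the pair forward. EMS404 is a hepatic stellate cell line from C57Bl6 mouse liver, immortalized with SV40 and expressing human TLR4, and every group shares these features. The 8 groups had 3 biological replicates each: vehicle (DMSO in the library names, no treatment in the labels), TGFb, SB431542, SR9011, CLK8, SB431542+TGFb, SR9011+TGFb and CLK8+TGFb. SB431542 inhibits the TGFb receptor, SR9011 is an agonist of REV-ERB and CLK8 disrupts the dimer of CLOCK and BMAL1. Cells had a compound or vehicle for 24 h, and the TGFb groups then had TGFb (10 ng/mL) added to it for another 24 h. Library names mark the groups without TGFb as veh and give no time. No source used here gives the compound doses or says whether cells without TGFb were kept for the second period. A difference between groups with and without TGFb therefore cannot be told apart from time in culture, and a single cell line stands for the stellate cell.

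IL-33 belongs to the IL-1 family of cytokines and is held in the nucleus, from which damaged cells release it. Outside the cell it binds ST2, which pairs with the accessory protein encoded by Il1rap and signals through MyD88, IRAK kinases and TRAF6 to NF-kB and MAP kinases. A soluble form of ST2 from the same gene lacks the membrane anchor and captures IL-33 as a decoy. In fibrotic liver, stellate cells are a known source of IL-33, which acts on innate lymphoid cells that make IL-13. The values below are RNA levels of whole genes, so they give neither IL-33 release nor the share of soluble ST2.

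Il33 (ENSMUSG00000024810) lies on the plus strand of chromosome 19 at 29925114 to 29960718, and Il1rl1 (ENSMUSG00000026069) on the plus strand of chromosome 1 at 40429570 to 40465415 (GRCm38, GENCODE M21). Both are protein coding and overlap no other annotated gene. GENCODE M21 lists 5 transcripts of each. The longest coding length of Il1rl1 is 567 codons, in transcripts of 10 and 11 exons that reach the 3′ end of the gene. Other Il1rl1 transcripts, of 8 exons, end early at 337 codons, and per-gene values add all of them together. RefSeq gives each gene 2 start sites. The second start is 20.7 kb after the first in Il33 and 10.1 kb after it in Il1rl1, in an intron of the transcripts that begin further upstream. The 250 bases before each start are shown because the gene's RNA level can be fed by either start, 5′ to 3′ on the plus strand, from RefSeq's table on GRCm38.p6. Capitals mark matches to the motifs that were searched.
Il33 first start (chr19:29924863-29925112): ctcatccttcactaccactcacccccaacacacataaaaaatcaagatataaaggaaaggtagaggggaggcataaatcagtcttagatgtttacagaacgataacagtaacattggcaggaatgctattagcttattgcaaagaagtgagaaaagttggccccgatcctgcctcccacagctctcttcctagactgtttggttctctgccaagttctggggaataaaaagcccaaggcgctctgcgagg
Il33 second start (chr19:29945540-29945789): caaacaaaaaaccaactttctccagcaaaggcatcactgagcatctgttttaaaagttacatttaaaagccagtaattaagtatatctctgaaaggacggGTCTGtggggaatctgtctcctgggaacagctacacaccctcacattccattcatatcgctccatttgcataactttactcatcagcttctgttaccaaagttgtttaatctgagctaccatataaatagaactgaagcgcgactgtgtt
Il1rl1 first start (chr1:40429320-40429569): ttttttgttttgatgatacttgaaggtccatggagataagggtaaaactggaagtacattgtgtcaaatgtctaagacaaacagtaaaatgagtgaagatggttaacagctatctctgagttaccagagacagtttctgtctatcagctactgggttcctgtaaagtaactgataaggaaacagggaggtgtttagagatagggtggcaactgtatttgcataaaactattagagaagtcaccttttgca
Il1rl1 second start (chr1:40439379-40439628): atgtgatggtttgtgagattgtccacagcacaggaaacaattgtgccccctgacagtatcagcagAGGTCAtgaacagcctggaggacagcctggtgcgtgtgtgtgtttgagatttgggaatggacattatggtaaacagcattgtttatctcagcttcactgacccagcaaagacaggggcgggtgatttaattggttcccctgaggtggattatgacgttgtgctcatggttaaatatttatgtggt
Searched on both strands were the E-box CACGTG, the element AGGTCA of REV-ERB and ROR, the SMAD element CAGAC and the AP-1 site TGANTCA, where N is any base. One AGGTCA stood 185 to 180 bases before the second Il1rl1 start, and 14.0% of the 32851 windows of this length in the table held one. One CAGAC, read on the minus strand, stood 150 to 146 bases before the second Il33 start, and 42.2% of windows held one. No other match was found in the 4 windows, while 6.02% of all windows held the E-box and 6.75% the AP-1 site. No searched motif overlaps another in these windows. These are matches of letters in short windows and no binding was measured.

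Expression was deposited as FPKM, a level per transcript length and library size, and read totals are unknown. The FPKM of all genes used added up to 503920 in the lowest library and 610024 in the highest. Between 10780 and 11000 genes were at 1 FPKM or more in a library. Of 11 stellate cell markers measured, 8 reached the level for testing and Reln was listed at 0 in every library, while Lrat was not analysed here. Among markers of other cells, the highest library had 0.13 FPKM of endothelial Pecam1, 0.02 of the leukocyte gene Ptprc, 0.01 of Il7r and 0.02 of hepatocyte Alb. Other members of these lists were measured at low levels, with endothelial Tek at 0.66 to 2.92 FPKM, Gata3 of the list for mast cells, ILC2 and regulatory T cells at 0.79 to 1.55, and macrophage Cd68 at 0.83 to 2.90. The cholangiocyte markers Krt7 and Krt19 reached 7.27 and 2.68 FPKM, and both fell with SR9011 (log2 -1.84 and -0.93, limma adjusted p = 6.93e-12 and 4e-07) and with CLK8 (log2 -1.38 and -0.81, limma adjusted p = 4.88e-09 and 8.77e-06). Sox9, the other of 3 tested cholangiocyte markers, went the other way. It was at 0.46 to 0.61 FPKM in vehicle, 1.93 to 2.89 with SR9011 and 1.81 to 1.91 with CLK8. All 6 mesothelial markers were tested, among them Upk3b, Wt1 and Msln, and their summed level ranged from 101 to 612 FPKM. In bulk RNA, fewer cells of a type and less RNA per cell cannot be told apart. The 3 SR9011 libraries lay furthest from their group mean (mean squared deviation of log2 values 0.0192, 0.0119 and 0.00925, against 0.00346 to 0.00891 in the others).

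Il33 was expressed in vehicle cells, nearly absent with SR9011 whether or not TGFb was given, and highest with CLK8 alone. Vehicle libraries had 12.98, 14.17 and 13.92 FPKM of Il33 (13.7 ± 0.627, SD, n = 3), a level above that of 46.7% of the 11297 tested genes. With SR9011 the libraries had 0.68, 1.03 and 0.45 FPKM (0.720 ± 0.292), and with SR9011+TGFb 0.79, 0.51 and 0.62 FPKM (0.640 ± 0.141). All 6 libraries with SR9011 lay under every one of the other 18, and the SR9011 groups with and without TGFb overlapped. The SR9011 mean was 5.26% of the vehicle mean, and the ratio of single libraries to a vehicle library ranged from 0.0318 to 0.0794. Under TGFb the SR9011 mean was 3.94% of the TGFb mean.

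**Figure D1:**
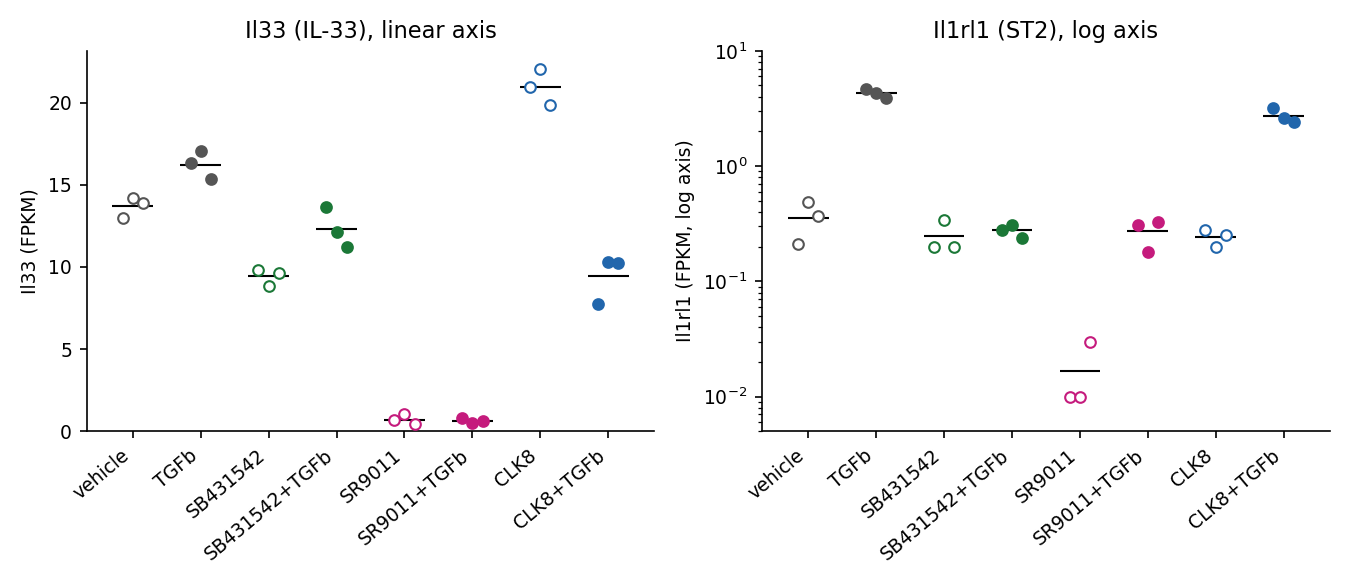
FPKM of Il33 (left, linear axis) and Il1rl1 (right, log axis) in each of the 24 libraries, by group on the horizontal axis. Points are libraries, filled where TGFb was given, and bars are group means: Il33 is near 0 in both SR9011 groups, and Il1rl1 is above 1 FPKM in TGFb and CLK8+TGFb alone.

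CLK8 alone gave 20.95, 22.07 and 19.83 FPKM of Il33 (20.9 ± 1.12), each above every library of the other groups and 1.53 times the vehicle mean. CLK8+TGFb gave 7.75, 10.29 and 10.23 FPKM (9.42 ± 1.45), each below every vehicle and TGFb library. TGFb alone gave 16.3, 17.07 and 15.32 FPKM (16.2 ± 0.877), each above the vehicle libraries. SB431542 alone gave 9.84, 8.85 and 9.65 FPKM (9.45 ± 0.525), below vehicle, and SB431542+TGFb gave 13.62, 12.11 and 11.2 FPKM (12.3 ± 1.22). By group mean the order of Il33 was CLK8, TGFb, vehicle, SB431542+TGFb, SB431542, CLK8+TGFb, SR9011 and SR9011+TGFb. Neighbours in this order overlapped in 3 places: vehicle with SB431542+TGFb, SB431542 with CLK8+TGFb, and the SR9011 groups with each other.

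Il33 differed with TGFb in opposite directions without a compound and with CLK8. Without compound it was higher with TGFb by 2.54 FPKM (SE 0.623) and with SB431542 by 2.86 FPKM (SE 0.768). The difference was thus also present in cells given the receptor inhibitor. It cannot be told apart from time in culture, and how far the receptor was inhibited was not measured. With CLK8, Il33 was lower under TGFb by 11.5 FPKM (SE 1.06), at 45.0% of its level with CLK8 alone. With SR9011 the groups with and without TGFb overlapped. On the log2(FPKM + 1) scale, fitted with limma over all genes, the TGFb difference in Il33 was 0.23 (SE 0.103) without compound, 0.35 with SB431542, -0.06 with SR9011 and -1.08 with CLK8. The difference between the last and the first was -1.31 (SE 0.145).

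Placed among all tested genes, the fall of Il33 was the largest of 11297 for SR9011+TGFb against TGFb (log2 -3.40, SE 0.103), and it kept this place at pseudocounts of 0.1 and 0.5, without the filter on low values, as TPM and after quantile normalization. It was the 4th largest fall for SR9011 against vehicle (log2 -3.11), and between the 4th and 7th under those settings. The difference of the TGFb response between CLK8 and no compound was the most negative of all tested genes, and between the 1st and 12th most negative under the other settings. The gain with CLK8 alone (log2 0.58) stood in 334th place from the highest. The summed mesothelial markers moved with the SR9011 result, from 494 FPKM in vehicle to 174 with SR9011 and from 221 with TGFb to 114 with SR9011+TGFb. Upk3b and Gpm6a were the largest members of that sum in vehicle, and Msln went the other way. Msln was at 4.65 to 6.18 FPKM in vehicle and 14.69 to 18.4 with SR9011, and at 7.16 to 8.41 with TGFb and 24.56 to 32.88 with SR9011+TGFb. With CLK8 alone the summed mesothelial markers stood at 221 FPKM, lower than in vehicle, while Il33 was higher with CLK8 than in vehicle. The summed stellate markers were 3103 FPKM in vehicle and 1111 with SR9011. Col1a1 (1574 and 405 FPKM) and Dcn (1067 and 500 FPKM) were the largest members of that sum. Of 8 tested stellate markers 6 fell with SR9011, where 28.3% of all tested genes fell. Pdgfrb rose (10.6 to 17.9 FPKM), and Acta2 was not called (99.9 and 85.2 FPKM). The part of these markers, and of the cholangiocyte markers above, in the Il33 result was not tested.

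Il1rl1 was low in vehicle cells and higher with TGFb, and with SB431542 or SR9011 present its level under TGFb overlapped that of vehicle. Vehicle libraries had 0.21, 0.49 and 0.37 FPKM (0.357 ± 0.140, SD, n = 3) and TGFb libraries 4.67, 4.31 and 3.92 FPKM (4.30 ± 0.375). All TGFb libraries lay above all vehicle libraries, by 8 to 22.2 times, with a ratio of means of 12.1. CLK8+TGFb gave 3.17, 2.59 and 2.42 FPKM (2.73 ± 0.393), each below the TGFb libraries and above every library of the remaining groups. SB431542+TGFb gave 0.28, 0.31 and 0.24 FPKM (0.277 ± 0.035), and SR9011+TGFb gave 0.31, 0.18 and 0.33 FPKM (0.273 ± 0.081). Both of these groups overlapped vehicle.

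Without TGFb, SB431542 gave 0.2, 0.34 and 0.2 FPKM of Il1rl1 and CLK8 gave 0.28, 0.2 and 0.25, and both overlapped vehicle. SR9011 alone gave 0.01, 0.01 and 0.03 FPKM, below every other library, at values where the 2 decimals of the table set the precision. By group mean the order was TGFb, CLK8+TGFb, vehicle, SB431542+TGFb, SR9011+TGFb, SB431542, CLK8 and SR9011, and the 5 groups from vehicle to CLK8 overlapped each neighbour. Only the TGFb and CLK8+TGFb libraries reached 1 FPKM, 6 in all, so Il1rl1 entered the fit through the groups where it was high.

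The gain of Il1rl1 with TGFb was 3.94 FPKM (SE 0.231) without compound, 2.48 FPKM (SE 0.228) with CLK8, 0.257 FPKM (SE 0.047) with SR9011 and 0.030 FPKM (SE 0.051) with SB431542. These are 63.0%, 6.51% and 0.761% of the gain without compound. As a ratio the picture with SR9011 differed, since Il1rl1 stood at 16.4 times its near-zero level without TGFb, with single libraries between 6 and 33 times. On the log2(FPKM + 1) scale, which understates such low levels, Il1rl1 was higher with TGFb by 1.97 (SE 0.082), in 36th place of 11297 genes. Against TGFb it was lower by similar amounts with SB431542 (log2 -2.05) and SR9011 (log2 -2.06), and less so with CLK8 (log2 -0.51). The 2 genes therefore parted under SB431542, where Il33 kept its TGFb difference and Il1rl1 did not, and under CLK8, where TGFb was accompanied by lower Il33 and higher Il1rl1.

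**Figure D2:**
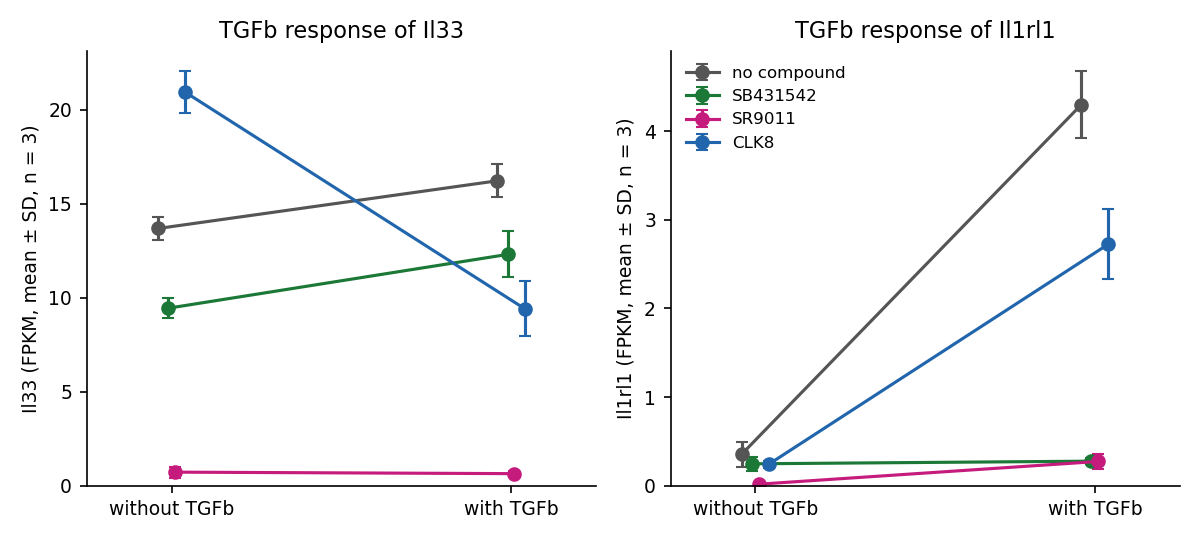
Mean FPKM (± SD, n = 3) of Il33 (left) and Il1rl1 (right) without and with TGFb, in cells given no compound, SB431542, SR9011 or CLK8. The lines for Il33 cross, since TGFb went with a gain of 2.54 FPKM without compound and a loss of 11.5 FPKM with CLK8, while the Il1rl1 lines for SB431542 and SR9011 stay below 0.4 FPKM.

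Il1rl1 sits in a cluster of IL-1 receptor genes on chromosome 1, and 1 neighbour had a similar course. The nearest measured genes before it are Il1rl2 (62.0 kb away), a receptor of IL-36, Il1r1 (112 kb), the signalling receptor of IL-1, and Il1r2 (304 kb), a decoy receptor. After it come Il18r1 (0.137 kb), Il18rap (49.9 kb), which code for the IL-18 receptor chains, and Slc9a4 (115 kb). Il18rap had 0.2, 0.2 and 0.19 FPKM in vehicle and 1.44, 1.49 and 1.5 FPKM with TGFb (log2 1.05, SE 0.056). It was lower than with TGFb alone in SB431542+TGFb (0.213 ± 0.042 FPKM, log2 -1.03), SR9011+TGFb (0.203 ± 0.059 FPKM, log2 -1.04) and CLK8+TGFb (0.460 ± 0.056 FPKM, log2 -0.76). Its TGFb difference with SB431542, SR9011 and CLK8 less that without compound was -0.94, -0.87 and -0.65 on the log2 scale, in comparisons where 34.3%, 31.9% and 7.97% of all tested genes were called. Only the 3 TGFb libraries reached 1 FPKM of Il18rap, so it passed the filter through the group where it was high, and its values are a description with no test. Of Il18r1, which lies between Il1rl1 and Il18rap, no library had over 0.05 FPKM.

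The other receptor genes of the cluster had other courses. Il1r1 was at 10.5 FPKM in vehicle and 11.3 with TGFb (limma adjusted p = 0.263) and was lower with SR9011, both alone (6.06 FPKM, log2 -0.70, limma adjusted p = 2.33e-08) and under TGFb (6.76 FPKM, log2 -0.67, limma adjusted p = 7.42e-08). Il1rl2 stayed between 0.9 and 1.78 FPKM in all libraries, and Il1r2 and Slc9a4 did not exceed 0.23 and 0.05 FPKM. Around Il33, the nearest measured genes are the nuclear import gene Ranbp6 (112 kb before), 9930021J03Rik and Mlana on one side, and the ubiquitin ligase gene Uhrf2 (69.8 kb after), Gldc and Dkk1 on the other. With SR9011, Ranbp6 did not pass the test (5.20 to 5.08 FPKM, limma adjusted p = 0.676) and Uhrf2 rose (47.2 to 56.2 FPKM, log2 0.25, limma adjusted p = 1.52e-05). Mlana, Gldc and Dkk1 were at or under 0.21 FPKM throughout.

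**Figure D3:**
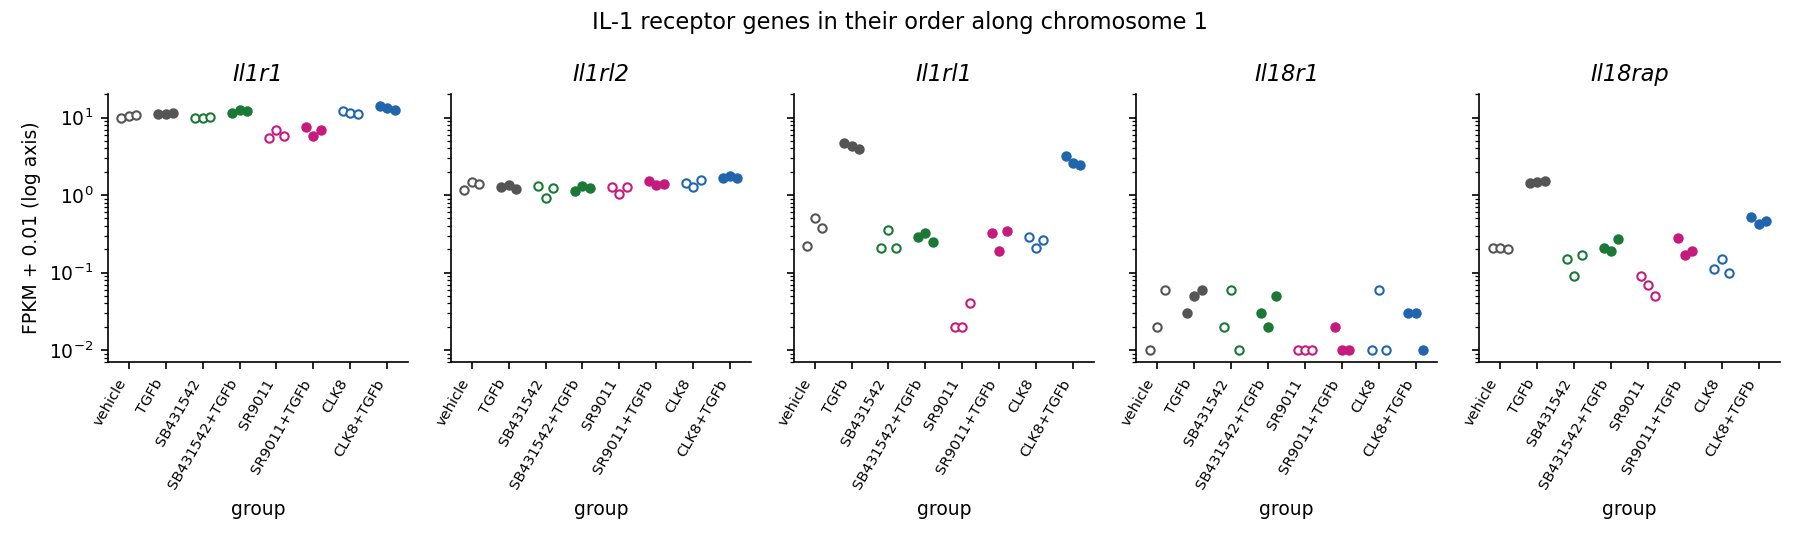
FPKM + 0.01 (log axis) of Il1r1, Il1rl2, Il1rl1, Il18r1 and Il18rap, in their order along chromosome 1, in each library by group, filled points where TGFb was given. Il1rl1 and Il18rap are highest with TGFb and next with CLK8+TGFb, and Il18r1 does not exceed 0.05 FPKM. Without compound, Il1r1 and Il1rl2 vary little with TGFb. Mean Il1r1 is 9.93 FPKM with SB431542 and 12.07 with SB431542+TGFb, and 11.55 with CLK8 and 13.43 with CLK8+TGFb. Mean Il1rl2 is 1.42 FPKM with CLK8 and 1.69 with CLK8+TGFb.

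The rest of the IL-33 pathway was read from 7 gene lists with 57 tested genes (ligands, receptors, ST2 signalling, enzymes acting on IL-33 or ST2, NF-kB targets, the type 2 cytokine circuit and other alarmins). The lists were chosen with earlier results of these data known. Called means an adjusted p (limma, Benjamini-Hochberg over all 11297 tested genes) under 0.05. Some of the 57 passed the filter of 1 FPKM only through groups where they were high, and their part in the counts is a description. Among them are Il18rap (TGFb alone), Irak3 (groups given SR9011 or CLK8) and Prtn3 (SB431542 or CLK8 without TGFb). Comparisons with a shared control group are given side by side and are not independent. With TGFb, 34 of 57 were called, 7 higher and 27 lower, where 54.9% of all tested genes were called (20.5% higher, 34.4% lower), and after quantile normalization 9 were higher and 20 lower. With SR9011 46 were called, 18 higher and 28 lower (69.1% of all genes, 40.7% higher), and with CLK8 30 were called, 15 each way (43.9%, with 30.3% higher and 13.6% lower). With SB431542 16 were called, 8 each way (16.9%, with 11.9% higher and 5.05% lower), and 4 higher and 10 lower after quantile normalization. That count fell to 9, 10 and 9 without vehicle replicates 1, 2 and 3, and to 10 and 6 without SB431542 replicates 2 and 3. Against TGFb, SB431542+TGFb had 31 higher and 8 lower (59.7% of all genes called, 38.3% higher and 21.4% lower). SR9011+TGFb had 18 and 28 (60.8%, with 36.8% higher), and CLK8+TGFb had 14 and 14 (41.1%, with 27.7% higher and 13.3% lower). After quantile normalization these were 23 and 12 for SB431542+TGFb and 10 and 17 for CLK8+TGFb.

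The partners of ST2 were expressed in all groups. Il1rap, the shared accessory chain, had 9.49 ± 0.299 FPKM in vehicle, 9.80 ± 0.314 with TGFb (limma adjusted p = 0.636) and 9.29 ± 1.28 with SR9011 (limma adjusted p = 0.656), and it was higher in SR9011+TGFb than with TGFb (11.3 ± 0.318 FPKM, log2 0.19, limma adjusted p = 0.0229), a call lost as TPM (0.312) and after quantile normalization (0.265). Myd88, the adaptor, fell with TGFb from 27.8 ± 0.720 to 19.4 ± 1.03 FPKM (log2 -0.50, limma adjusted p = 2.61e-08) and rose with SR9011 to 33.4 ± 1.30 FPKM (log2 0.25, limma adjusted p = 0.000161). Irak4, the kinase that MyD88 recruits first, fell with TGFb (log2 -0.30, limma adjusted p = 0.00657) and rose with SR9011 (log2 0.39, limma adjusted p = 0.000411). Both overlap another measured gene in the annotation, and their values are less certain because no source used here says that counting used strand. Of 24 genes of ST2 signalling, 15 rose and 5 fell with SR9011 (median log2 0.26, against 0.06 over all genes, of which 40.7% rose and 28.3% fell). Irak3 is among the 24 and reached 1 FPKM only in groups given SR9011 or CLK8. The rises included Tollip, an inhibitor of IL-1 and Toll-like receptor signalling (log2 0.82, limma adjusted p = 3.12e-14), and the falls Nfkbia, the NF-kB inhibitor that NF-kB itself induces (log2 -1.02, limma adjusted p = 3e-12). With TGFb 2 of the 24 rose and 10 fell (median log2 -0.11, against -0.05), where 20.5% of all genes rose and 34.4% fell, so the share called was near that over all genes.

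Irak2, a kinase of the same receptor complex, was named because it was among the leading genes for CLK8+TGFb against TGFb. It was at 8.31 ± 0.220 FPKM with TGFb and 13.7 ± 0.606 with CLK8+TGFb (log2 0.65, limma adjusted p = 6.2e-07), the group in which Il33 and Il1rl1 were both lower than with TGFb alone. Relb, an NF-kB subunit, was lower in the same comparison (log2 -0.53, limma adjusted p = 5.42e-08).

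**Figure D4:**
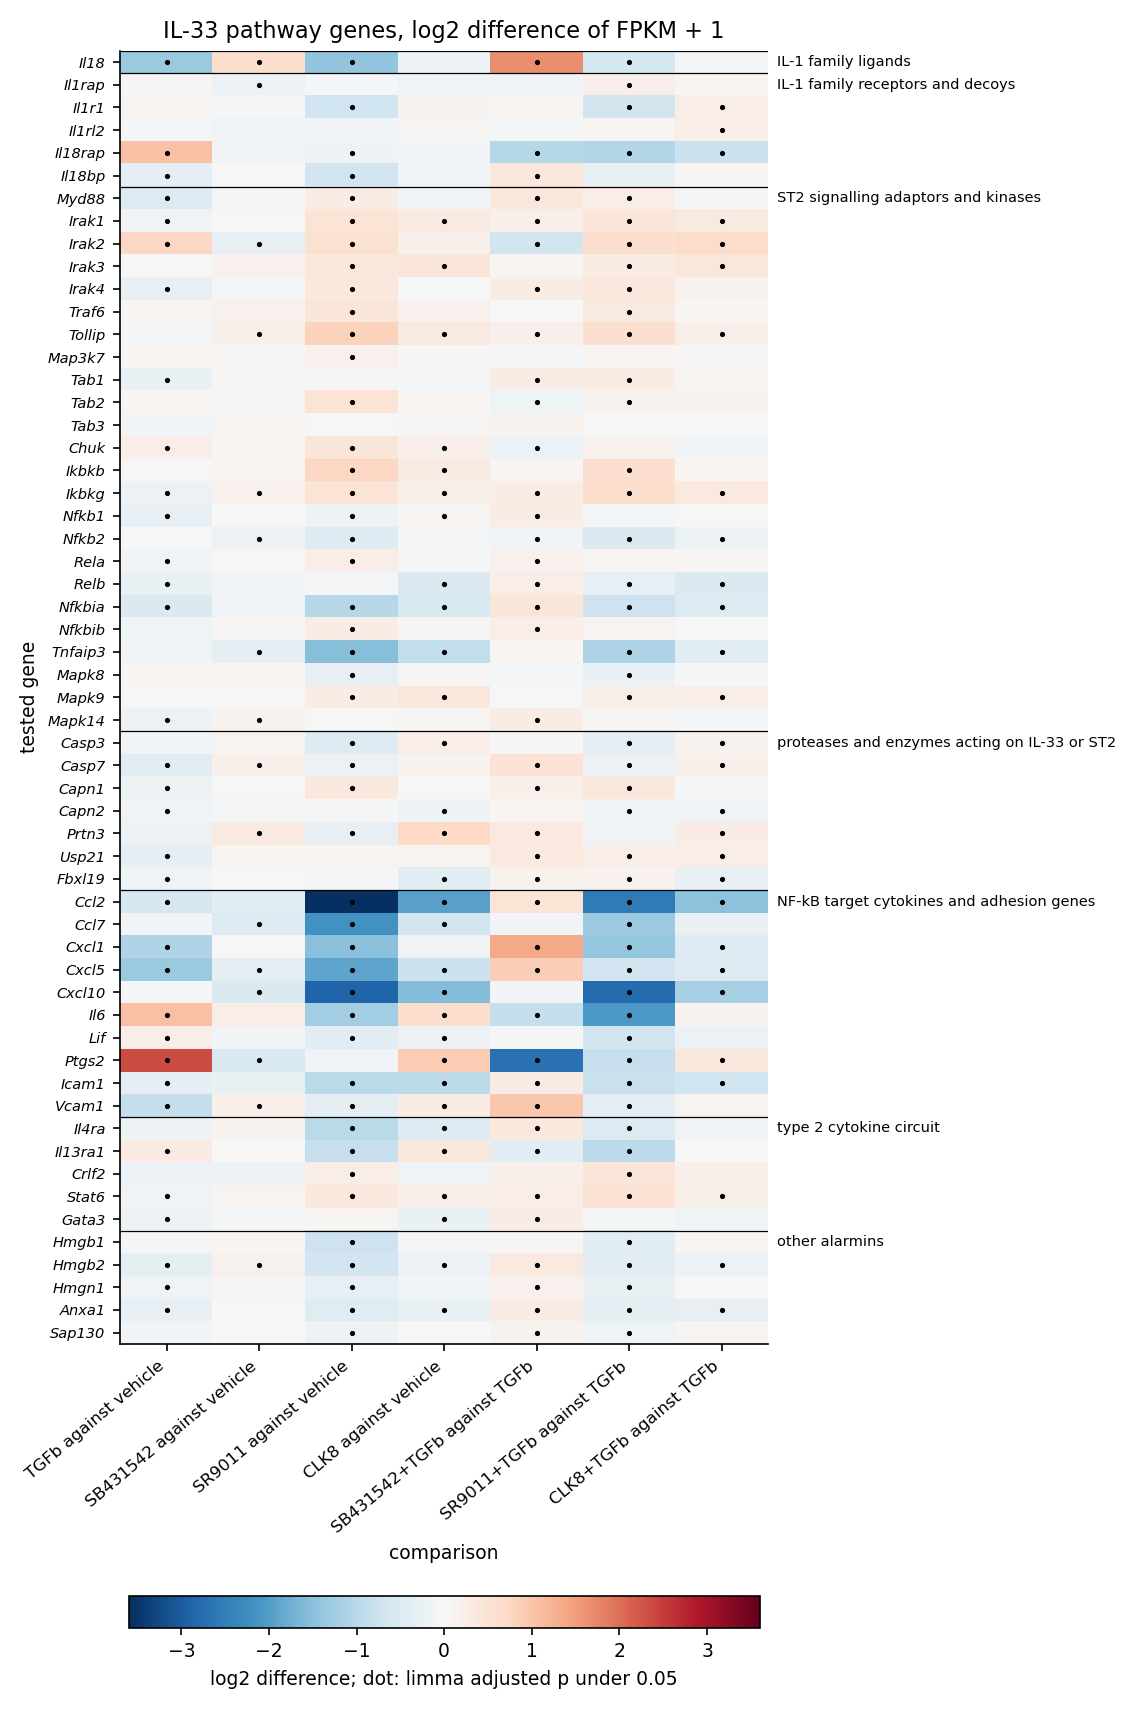
Log2 difference of FPKM + 1 for the 57 tested genes of the IL-33 pathway lists (rows, grouped by list) in 7 comparisons (columns), red higher and blue lower, with a dot where the limma adjusted p was under 0.05. The SR9011 columns are blue for most NF-kB targets, with Ccl2 at -3.58 against vehicle, and the TGFb column has Ptgs2 as its strongest rise at 2.36.

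NF-kB target genes fell together with Il33 under SR9011. Of 10 tested, 9 fell and none rose with SR9011 (median log2 -1.38), where 28.3% of all tested genes fell, and the tenth, Ptgs2, had 5.84 FPKM in vehicle and 5.37 with SR9011. Against TGFb all 10 were lower in SR9011+TGFb (median log2 -1.06), where 24.0% of all tested genes were lower. Over all genes, 60.5% of the calls in that comparison were rises, and 45.8% after rescaling to TPM. Mesothelial markers fell in the same comparison, 5 of 6, and 4 of 6 with SR9011 alone, while Msln rose in both. Krt8, among the 5, reached 1 FPKM only with TGFb and CLK8+TGFb. It passed the filter through groups where it was high, and its fall is a description. The part of these markers in the result was not tested. Ccl2, a chemokine for monocytes, fell from 207 ± 28.2 to 16.4 ± 2.39 FPKM with SR9011 (log2 -3.58, limma adjusted p = 1.01e-13), and Cxcl5, a neutrophil chemokine, by 1.89 on the log2 scale. Il6 was at 4.86 FPKM with TGFb and 0.383 with SR9011+TGFb (log2 -2.08). Cxcl5, Icam1 and Il6 reached 1 FPKM in no library with SR9011, so they passed the filter through other groups, where they were higher. Their falls, and their part in both counts, are a description with no test.

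With CLK8 and with TGFb the same targets moved both ways. With CLK8, where Il33 was highest, 3 of the 10 rose and 6 fell (median log2 -0.44), where 30.3% of all tested genes rose and 13.6% fell. Ccl2 fell to 52.7 ± 8.91 FPKM (log2 -1.96, limma adjusted p = 5.22e-09), while Ptgs2, which codes for the prostaglandin synthase COX-2, rose (log2 0.91, limma adjusted p = 2.38e-08). With TGFb 3 rose and 5 fell, against 20.5% and 34.4% of all genes. Ptgs2 rose from 5.84 ± 0.241 to 34.2 ± 2.23 FPKM (log2 2.36, limma adjusted p = 6e-16), and Vcam1, an adhesion molecule, fell (log2 -0.87, limma adjusted p = 2.48e-12). Ptgs2 was lower than with TGFb alone in SB431542+TGFb (4.51 ± 0.446 FPKM, log2 -2.68, limma adjusted p = 4.42e-17), as Il1rl1 was.

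Among the other IL-1 family ligands Il18 alone was tested, and it went the other way from Il1rl1 with TGFb. Il18 fell from 5.47 ± 1.31 FPKM in vehicle to 1.55 ± 0.281 with TGFb (log2 -1.33, limma adjusted p = 2.55e-08) and was at 7.18 ± 0.455 FPKM with SB431542+TGFb (log2 1.68 against TGFb, limma adjusted p = 4.02e-10). With SB431542 alone it rose (log2 0.63, limma adjusted p = 0.00204), and with SR9011 it fell to 1.40 ± 0.314 FPKM (log2 -1.42, limma adjusted p = 4.14e-09), as Il33 did. Il18 overlaps another measured gene, so its values are less certain, as for Myd88. Il1a, another alarmin of the family, did not exceed 0.04 FPKM in any library.

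All 5 other alarmins tested fell with SR9011 (median log2 -0.43), each by far less than Il33, and the same 5 were lower in SR9011+TGFb than with TGFb, where 28.3% and 24.0% of all tested genes were lower. With CLK8 2 fell and none rose, where 13.6% of all genes fell. Of 7 tested genes for enzymes that act on IL-33 or ST2, among them the caspases that inactivate IL-33, 5 fell and none rose with TGFb, where 34.4% of all genes fell. With SR9011 1 rose and 3 fell, a share below the 69.1% called over all genes. Prtn3 is among the 7 and reached 1 FPKM only with SB431542 or CLK8 without TGFb. The type 2 cytokines were hardly measured, with Tslp at no more than 0.67 FPKM and Il5 at no more than 0.08 in any library. Il13ra1, a receptor chain for the IL-13 that IL-33 elicits from lymphoid cells, was lower in SR9011+TGFb (7.26 FPKM) than with TGFb alone (log2 -0.95, limma adjusted p = 5.68e-12).

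The genes whose 8 group means on the log2(FPKM + 1) scale correlated best with those of Il33 were Naa10 (Pearson r = 0.987), Tnfrsf9 (0.987), Ssr4 (0.980), Filip1l (0.979) and Jpt2 (0.977). Over the 24 libraries the same genes had r between 0.893 and 0.962, and 37 genes exceeded 0.95 over group means. Tnfrsf9, which codes for the costimulatory receptor 4-1BB, went from 3.55 FPKM in vehicle to 0.880 with SR9011 and 0.753 with SR9011+TGFb, and Filip1l from 43.9 to 17.7 and 21.6 FPKM. Naa10, Ssr4 and Jpt2 went from 50.3, 150 and 89.5 FPKM in vehicle to 33.1, 117 and 62.7 with SR9011. All these falls were smaller in proportion than that of Il33, since r does not measure the size of a change. Closest to Il1rl1 were Brix1 (0.992), Ptprn (0.989), Tsr1 (0.987), Rnf4 (0.985) and Elavl1 (0.979), of which Brix1 and Tsr1 act in ribosome assembly. Ptprn was likewise highest with TGFb and next with CLK8+TGFb, with 0.630 FPKM in vehicle, 2.49 with TGFb, 2.02 with CLK8+TGFb and at most 0.677 in the other groups. Its rise with TGFb was smaller than that of Il1rl1, and with SR9011 alone it was at 0.323 FPKM. Brix1 changed less still in proportion, from 21.1 FPKM in vehicle to 26.6 with TGFb. Between Il33 and Il1rl1 themselves r was 0.380 over the group means. The points share the same libraries and treatments, so these values describe likeness and no more.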

How the data were processed

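RNA-seq of 24 EMS404 libraries was used as the authors' deposited table of FPKM with 2 decimals. Per the submitters' processing notes, mm10, HISAT2 2.0.4, Bowtie2 2.2.5, RSEM and DESeq2 were used, with roles and any filter not given in the sources used here. RNA came from either of 2 kits by yield, per the labels' protocols, and the kit of each sample is not given there. The table held 16620 lines, of which 16 lines of 8 repeated identifiers were left out, leaving 16604 genes. Symbols were matched for all but 43 of 16612 identifiers. The 11297 genes that reached 1 FPKM in 3 or more libraries went, as log2(FPKM + 1), into limma 3.58.1 (R 4.3.3; moderation robust and by trend), as 1 model of the 8 groups (13 comparisons, residual degrees of freedom 16). Tests were 2-sided, with Benjamini-Hochberg adjustment. The fit was tested on simulated data. Python 3.11.15, pandas 2.3.3 and matplotlib 3.10.9 were also used. The members and the gene lists were chosen with earlier results of these data known. Pathway genes were named where they were among the 4 smallest adjusted p of a comparison, and Il1rap, Myd88, Il1r1 and Irak4 in every case. The other named genes were the 3 nearest measured neighbours on each side and the 5 most similar genes, without clone names. Levels given for other genes were chosen after their values were seen. Same-numbered samples deviated together (all 3 correlations over 0.1) in 2 of 28 pairs of groups, of which SB431542 with SB431542+TGFb (0.415, 0.208 and 0.117) was compared, and the fit left this pairing out. Alternatives were other pseudocounts, filters and scalings, no trend, the compared groups alone, a replicate block and leaving out each library.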

Additional observations from a re-analysis of the deposited data

Results flagged for a closer look

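Il33 stands here because TGFb went with opposite changes without compound and with CLK8. All 3 TGFb libraries lay above all 3 vehicle libraries, and all 3 CLK8+TGFb libraries lay below all 3 CLK8 libraries, with a difference of -1.31 (log2, SE 0.145) between these TGFb responses. The difference was not tested for Il33, since the gene was chosen with results of these data known.

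For 17 named pathway genes the TGFb response with a compound was compared with the response without one through the interaction term of limma. Apart from Il1rap, Myd88, Il1r1 and Irak4, they were named for small adjusted p in comparisons that share these libraries. That choice favours a high share passing, so the counts below are a description beside the share of all genes. Il18rap is counted here, but it entered the fit only through the TGFb libraries, where it was high, so its values are a description and support nothing. Il6 and Cxcl5 reached 1 FPKM in no library with SR9011, and Cxcl5 in none with TGFb alone or CLK8+TGFb. Il18 reached it in none with SR9011+TGFb. These genes passed the filter through other groups, where they were higher, and their values are likewise a description. With CLK8, 5 passed at an adjusted p under 0.05 (7.97% of all tested genes did): Il18rap (-0.65), Ptgs2 (-0.55), Il6 (-0.50), Il13ra1 (-0.39) and Irak2 (0.46), as log2 differences. With SB431542, 12 passed (34.3% of all genes): Ptgs2 (-2.12), Il6 (-1.12), Il18rap (-0.94), Il13ra1 (-0.43), Irak2 (-0.38), Relb (0.35), Myd88 (0.46), Nfkbia (0.54), Vcam1 (0.79), Ccl2 (0.90), Il18 (1.05) and Cxcl5 (1.22). With SR9011, 9 passed (31.9% of all genes): Il18rap (-0.87), Il6 (-0.82), Ptgs2 (-0.71), Relb (-0.23), Tollip (-0.21), Nfkbia (0.27), Il18 (0.79), Ccl2 (1.03) and Cxcl5 (1.20).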

How the results depend on the processing

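The sign turned in 2 differences near 0: Il33 for SR9011+TGFb against SR9011, which ran from -0.17 to 0.07 on leaving out single libraries (above 0 without SR9011 replicate 2), and Il1rl1 for SB431542+TGFb against SB431542, at -0.02 after quantile normalization. No other difference of Il33 or Il1rl1 turned under the alternatives run. With a pseudocount of 0.1 the log2 difference of Il33 was -4.13 for SR9011 and -4.48 for SR9011+TGFb against TGFb. That of Il1rl1 was 3.31 for TGFb, -0.37 for SB431542, -1.92 for SR9011, -0.37 for CLK8, -3.55 for SB431542+TGFb and -3.58 for SR9011+TGFb against TGFb, 0.14, 1.66 and 3.04 for TGFb within SB431542, SR9011 and CLK8, and -3.17 for the interaction of SB431542 with TGFb. With a pseudocount of 0.5, Il33 gave -3.57 and -3.88 for SR9011 without and with TGFb. Il1rl1 gave 2.50 for TGFb, -0.72 for SR9011, -2.63 for SB431542+TGFb and -2.64 for SR9011+TGFb against TGFb, 0.58 and 2.11 for TGFb within SR9011 and CLK8, and -2.44 and -1.92 for the interactions of SB431542 and SR9011. As TPM, Il33 gave -3.55 and -3.90, and Il1rl1 gave 2.49, -0.67, -2.60, -2.63, 0.53, 2.12, -2.43 and -1.96 in the same order. After quantile normalization Il1rl1 gave -2.24 for SB431542+TGFb against TGFb and -2.14 for the interaction of SB431542. A smaller pseudocount, or TPM's larger values, widens log2 differences of low genes by construction. At a minimum of 5 FPKM Il1rl1 was not tested. The count of called pathway genes for SB431542 against vehicle ran from 6 to 17 on leaving out single libraries. With a replicate block as pairing it stayed at 16, and the block changed no call of a named gene. Leaving out single libraries ended 12 calls of named genes and made 2. Values of Il1rl1 below 0.1 FPKM rest on the table's 2 decimals, and read depth is unknown.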
